A study of Mus musculus with 84 samples.

Results

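Astrocytes of the spinal cord were compared with those of the hindbrain in unimmunized control mice. Both groups were wild-type C57BL/6J mice without experimental autoimmune encephalomyelitis (EAE), the mouse model of multiple sclerosis in which the other mice of the experiment were studied. The 10 libraries were chosen by their labels, 5 of spinal cord and 5 of hindbrain, out of 84 in the series and 66 in the EAE experiment. Hindbrain stands for cerebellum with brain stem, and spinal cord for its cervical and thoracic parts. Live cells negative for CD11B and CD45, the surface proteins of microglia and other leukocytes, were sorted as ACSA-2+ and GLAST-. ACSA-2 is a surface epitope on a sodium pump subunit of astrocytes, and GLAST is the glutamate transporter encoded by Slc1a3. No transgene, Cre driver or drug was part of either group. The labels give neither age nor sex of the mice. In the study's methods the immunized mice were females aged 10 weeks. A library may hold RNA of up to 2 mice, so p-values measure a spread between libraries. In the fit used for calls, that spread was estimated over all 66 libraries of the EAE experiment.

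Each library counted the 3′ ends of transcripts. Totals ran from 1554784 to 2975879 counts in hindbrain and from 1857684 to 3705375 in spinal cord. Levels are given in CPM (counts per 1e6 counts) after TMM scaling, a correction for differences in library composition, and 5 values in a row follow replicates 1 to 5. Pairs of means are ± SD (n = 5 each) with hindbrain first, and fold changes are spinal cord minus hindbrain on the log2 scale ± SE. A limit of 3 counts corresponded to between 0.860 and 2.00 CPM per library. Such limits and the count intervals below cover counting error only. The labels also carry a sheet number, which ran from 32 to 51 in the hindbrain libraries and from 60 to 83 in the spinal cord libraries. Region and sheet number cannot be told apart within these 10 libraries.

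The hindbrain and the spinal cord form from neighbouring stretches of the neural tube. Hox genes, which encode homeodomain transcription factors arranged in 4 clusters, are switched on in an order along the body axis that follows their place in the cluster, and cells keep much of this code into adult life. Otx and En factors mark levels ahead of or within the hindbrain in the early neural tube. Enzymes such as Cyp26b1 that break down retinoic acid shape the signal that sets the Hox boundaries.

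The start sites of 4 such genes are shown because each was far higher in 1 region than in the other. Hoxa7 and Hoxd8 are Hox genes of the trunk and were found in spinal cord. En1, a homeodomain factor of the midbrain and hindbrain border, and Cyp26b1, a retinoic acid hydroxylase, were found in hindbrain. The windows run from 250 bases before to 50 bases after the start of the gene in RefSeq on GRCm38.p6, and capitals mark each CG dinucleotide. The RefSeq start of Hoxa7 lies inside the longer gene model of GENCODE. The windows lie at chr6:52218524-52218823 on the minus strand for Hoxa7, chr2:74704365-74704664 on the plus strand for Hoxd8, chr1:120602237-120602536 on the plus strand for En1 and chr6:84593761-84594060 on the minus strand for Cyp26b1.
Hoxa7: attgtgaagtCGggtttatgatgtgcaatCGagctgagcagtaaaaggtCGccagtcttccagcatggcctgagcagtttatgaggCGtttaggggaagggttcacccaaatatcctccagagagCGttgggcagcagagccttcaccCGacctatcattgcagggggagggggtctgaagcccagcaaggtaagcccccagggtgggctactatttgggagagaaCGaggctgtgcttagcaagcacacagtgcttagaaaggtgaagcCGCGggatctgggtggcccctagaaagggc
Hoxd8: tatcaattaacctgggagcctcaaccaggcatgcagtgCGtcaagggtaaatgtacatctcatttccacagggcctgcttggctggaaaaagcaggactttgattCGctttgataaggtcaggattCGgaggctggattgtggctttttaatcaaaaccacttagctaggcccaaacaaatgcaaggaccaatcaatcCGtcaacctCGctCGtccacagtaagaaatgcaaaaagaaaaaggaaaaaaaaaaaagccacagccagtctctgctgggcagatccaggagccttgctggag
En1: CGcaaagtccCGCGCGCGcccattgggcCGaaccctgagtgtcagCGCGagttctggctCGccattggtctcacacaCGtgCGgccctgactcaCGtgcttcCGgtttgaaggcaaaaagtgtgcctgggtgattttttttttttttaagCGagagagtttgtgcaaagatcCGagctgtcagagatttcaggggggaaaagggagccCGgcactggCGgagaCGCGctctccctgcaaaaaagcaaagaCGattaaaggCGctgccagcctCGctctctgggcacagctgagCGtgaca
Cyp26b1: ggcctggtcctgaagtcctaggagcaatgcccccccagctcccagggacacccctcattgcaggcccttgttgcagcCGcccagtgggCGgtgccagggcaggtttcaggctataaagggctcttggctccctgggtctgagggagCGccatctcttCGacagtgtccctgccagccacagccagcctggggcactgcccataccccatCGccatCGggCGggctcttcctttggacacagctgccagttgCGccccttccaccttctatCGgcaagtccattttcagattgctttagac
The En1 window holds 23 CG dinucleotides, the Hoxa7 and Cyp26b1 windows 9 each and the Hoxd8 window 6. Across all 27025 windows of this length in the table the median was 7, and 78.4% of them had fewer CG dinucleotides than En1. For genes higher in spinal cord (453 matched) the median was 20, for genes lower there (268 matched) 17, and for all 13961 tested genes that matched 18. These are descriptions of sequence, and no DNA methylation was measured.

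Genes with 10 or more counts in total were tested, 23324 in number, and 979 (4.20%) differed between the regions by edgeR's quasi-likelihood test. Calls required an adjusted p below 0.05 together with a log2 fold change of more than 1 in size. There were 610 genes (2.62% of those tested) higher in spinal cord and 369 (1.58%) lower. Without overlap between the 5 and 5 libraries were 1659 genes (7.11%), among them 490 of the genes called higher and 307 of those called lower. The median log2 fold change over all tested genes was 0, and over the 11546 genes with at least 5 CPM in a region it was -0.03. In the latter 5.16% were called higher and 2.81% lower. The hindbrain libraries resembled each other more, with a Pearson's r across 10870 genes from 0.880 to 0.918, than the spinal cord libraries did, with r from 0.758 to 0.889.

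**Figure D1:**
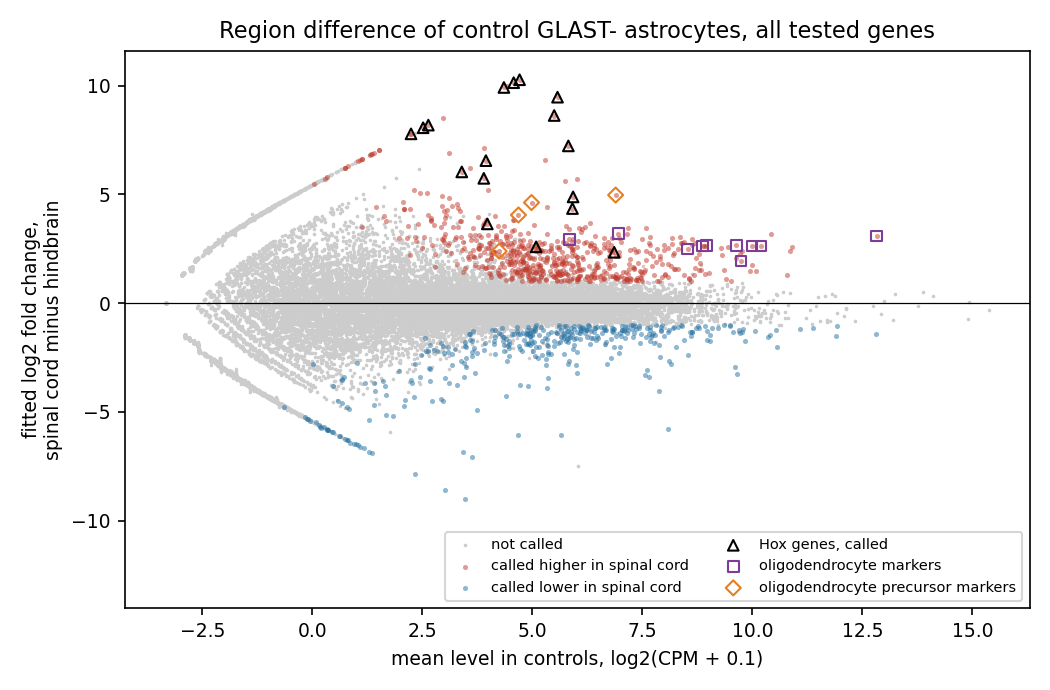
Fitted log2 fold change of spinal cord minus hindbrain (vertical axis) against the mean level in controls as log2(CPM + 0.1) (horizontal axis), 1 point a tested gene, with called genes coloured and the called Hox genes (triangles), oligodendrocyte markers (squares) and precursor markers (diamonds) outlined. Hox genes are among the highest points, and all outlined genes lie above 0. Curved edges are genes with no count in one region, whose fitted value depends on a prior count.

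The labelled regions were checked first by Hoxc8, a Hox gene of the trunk (ENSMUSG00000001657, chromosome 15, 102990607 to 102994111 on the plus strand in GENCODE vM21). Its level was 0.85, 0, 0, 0 and 0 CPM in hindbrain and 132, 49.9, 78.3, 101 and 88.9 CPM in spinal cord. All 5 spinal cord libraries stood far above all 5 hindbrain libraries, as their labels have it. The hindbrain group held 2 counts in all, so the difference is given as a ratio of counts, which was 464 (95% interval 128 to 3833). Its gene model overlaps that of Hoxc5 on the same strand. In the union mode of counting that the study used, a read on exons of both genes is counted for neither. Some reads of Hoxc8 may therefore be missing.

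The sorted cells were checked by lists of marker genes. The sum of 23 astrocyte markers lay between 61074 and 90693 CPM in spinal cord and between 98208 and 110536 CPM in hindbrain. It was the higher in every hindbrain library, although only 3 of the 23 genes (Slc1a3, Sox9 and Acsl6) were called lower. Acsl6, a fatty acid ligase, missed the fold threshold without spinal cord replicate 2 (log2 fold change -0.95). The sum of 10 oligodendrocyte markers went the other way, from 14358 to 41875 CPM in spinal cord against 1470 to 5103 CPM in hindbrain, with the highest value in spinal cord replicate 3. Markers of oligodendrocyte precursors summed to between 197 and 602 CPM against 16.6 to 20.8 CPM, and neuronal markers to between 160 and 291 CPM against 67.4 to 167 CPM. In bulk samples, fewer cells of a type and less RNA per cell cannot be told apart. Myeloid, ependymal, endothelial, mural and leptomeningeal sums overlapped between the regions, and none of their genes was called by edgeR in the fit of all 66 libraries. Of the 12 myeloid genes 11 had a negative log2 fold change (median -1.35), and 2 were called lower with DESeq2 and 1 with no filter on low counts, without hindbrain replicate 2 or with the replicate number as a block. The sum of 6 T cell genes lay between 0 and 10.9 CPM in spinal cord and between 6.37 and 17.7 CPM in hindbrain. Of these genes Cd3e, Cd3d and Cd3g were at 0 in spinal cord. Cd4 and Cd8a had positive log2 fold changes (0.67 and 3.10), and none of the 6 was called. The endothelial gene Tek was at 0 in both regions.

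**Figure D2:**
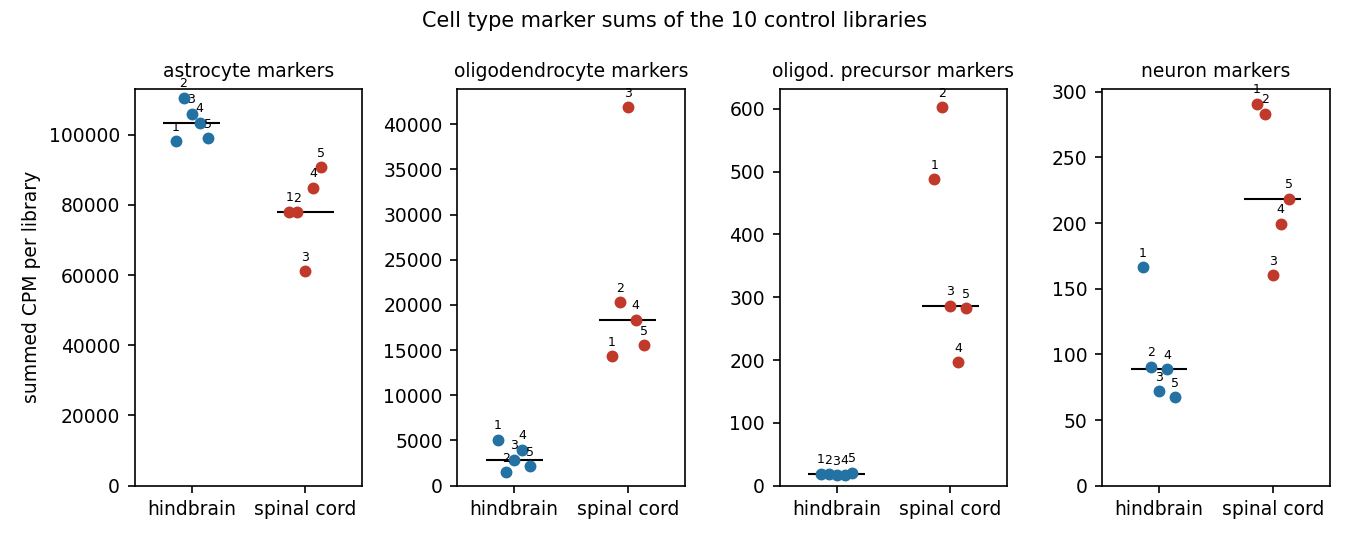
Summed CPM of marker genes (vertical axis, starting at 0) in each control library (points), by region (horizontal axis), with 1 panel a cell type. The oligodendrocyte, precursor and neuronal panels have most or all spinal cord libraries above those of hindbrain, and the astrocyte panel has them below.

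Hox genes set the regions apart. Of 39 Hox genes listed, 32 were tested, 17 were higher in spinal cord and 0 lower, with a median log2 fold change of 4.20 against 0 over all genes. Calls and levels both differed by place in the cluster. Of paralogue groups 1 to 3, the first to be switched on, 0 of 7 were called, and their summed means were 36.2 CPM in spinal cord and 12.3 CPM in hindbrain. Groups 4 and 5 had 4 of 7 called, with sums of 429 and 65.6 CPM. In groups 6 to 10, the genes of the trunk, 13 of 14 were called and the sums were 671 and 5.68 CPM. Only Hoxa6 of these was not called, at a mean of 2.47 CPM in spinal cord. In groups 11 to 13, genes of the lumbar and tail levels, 0 of 4 were called and the sums were 6.36 and 0.225 CPM. Most of the former was Hoxc11, at 5.71 ± 12.8 CPM (SD) from 1 spinal cord library only. Missing calls can also follow from low levels. Hoxb2 and Hoxb3, not called, had log2 fold changes of 2.42 and 2.23 at means of 6.47 and 14.4 CPM in spinal cord. Hoxd4, called, had 2.34 at 194 CPM.

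Hoxa7 (chromosome 6, 52214491 to 52221854) read 130.4, 77.4, 53, 113 and 101 CPM in spinal cord and was at 0 in 4 of 5 hindbrain libraries, with 0.346 CPM in replicate 4. The ratio of counts was 971 (95% interval 174 to 38391). Hoxc9 at 61, 71.8, 33.5, 43.6 and 51 CPM, Hoxa9 at 58.5, 54.1, 21.5, 55 and 48.7 CPM and Hoxd8 at 27.8, 46.3, 50.5, 40.8 and 38.4 CPM had no count in any hindbrain library. Against a limit of 3 counts over the group they were at least 182-fold, 164-fold and 150-fold higher in spinal cord. Hoxd3os1, a noncoding transcript on the opposite strand to Hoxd8, was at least 144-fold higher. The use of strand in counting is not given in the sources used here. Without it, a counted read could come from either strand, and reads on exons of both genes were left out. Hoxa10 and Hoxc10, the most caudal genes called, were lower in level, at 9.42, 35.8, 2.87, 5.02 and 3.28 CPM and 14.9, 12.5, 9.17, 7.54 and 2.34 CPM, and at least 41.4-fold and 33.1-fold higher than in hindbrain.

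Some Hox genes of groups 4 and 5 were found in both regions. Hoxd4 had a mean of 194 CPM in spinal cord and 38.3 CPM in hindbrain, a log2 fold change of 2.34 ± 0.52 (SE). Hoxb4 differed by 2.59 and Hoxa5 by 4.35 on the log2 scale. Hoxc6, of the trunk genes, with 101, 108, 102, 102 and 148 CPM in spinal cord, was found at 1.7, 0, 0, 1.39 and 0 CPM in hindbrain, a log2 fold change of 7.23 ± 0.93 (edgeR, adjusted p = 2.82e-08). Summed over all Hox genes, the spinal cord libraries read 1320, 1237, 760, 1232 and 1163 CPM and the hindbrain libraries 66.7, 96.6, 87.2, 110 and 58.5 CPM. GLAST-positive hindbrain astrocytes of the same control groups read 9.81, 0, 13.7, 6.60 and 17.2 CPM, below every GLAST- library of hindbrain.

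**Figure D3:**
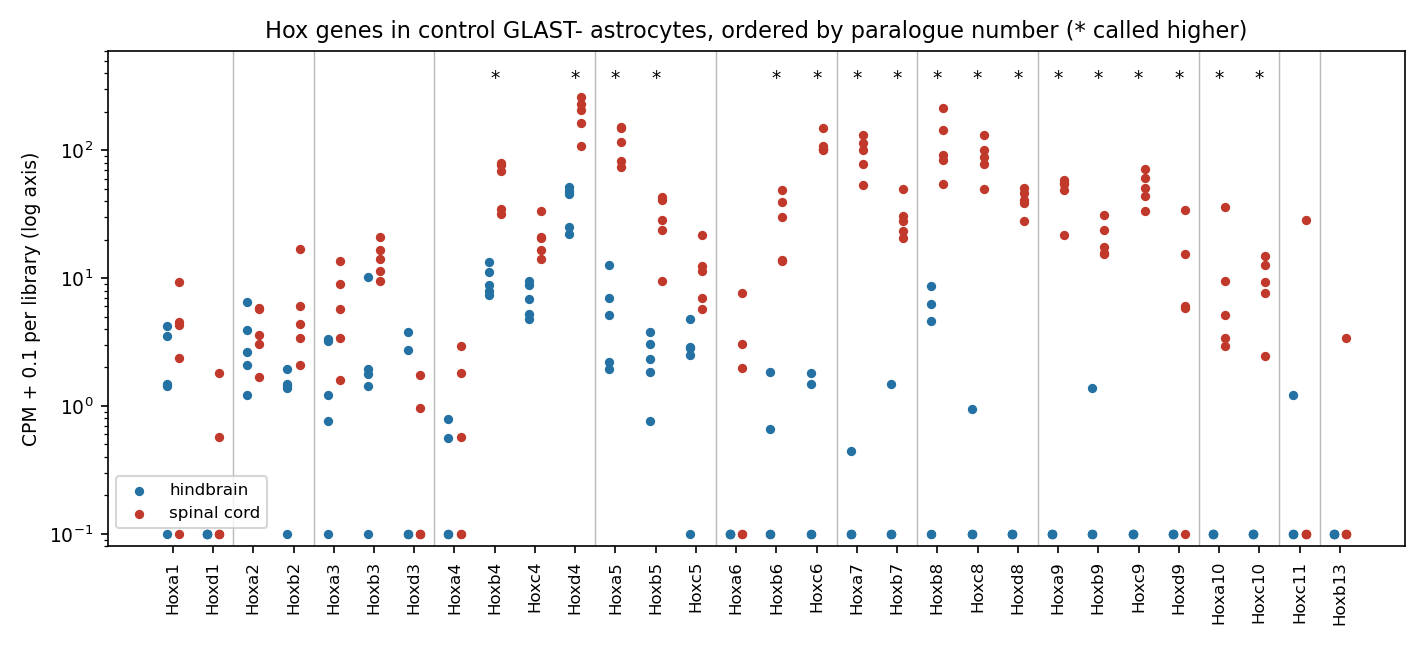
Level per library of each tested Hox gene that had a count in these libraries, as CPM + 0.1 on a log axis (vertical), ordered by paralogue number (horizontal), with spinal cord and hindbrain libraries as points and an asterisk for genes called higher. From paralogue group 6 to group 10 hindbrain libraries lie at or near 0 other than for Hoxb8, and spinal cord libraries lie higher for most genes. Of 32 tested Hox genes 19 have no overlap between the regions, among them genes outside these groups.

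Other patterning factors, among them genes of more rostral levels, were the counterpart. The list, called rostral factors below, also holds Zic genes and Hox cofactors such as Pbx3. Of 42 listed patterning factors, 40 were tested, 12 were lower in spinal cord and 1 was higher, with a median log2 fold change of -1.48. En1 (chromosome 1, 120602418 to 120607992) read 14.9, 23.9, 17.3, 16.6 and 36.5 CPM in hindbrain and 0 in all 5 spinal cord libraries, at least 97.7-fold lower. Otx2, a factor of forebrain and midbrain, read 93.9, 98.9, 101, 119 and 83.7 CPM in hindbrain, and 0, 0, 6.31, 0 and 0 CPM in spinal cord, a log2 fold change of -6.05 ± 0.81 (edgeR, adjusted p = 1.21e-07). Its paralogue Otx1 read 22.9, 26.2, 30.6, 21.5 and 20.8 CPM in hindbrain and 0.573 CPM in 1 spinal cord library only, and was lower by a ratio of counts of 166 (95% interval 45.5 to 1379). The 2 regions did not overlap for any of these 3 genes.

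The Zic genes, zinc finger factors of the dorsal neural tube and cerebellum, were lower in spinal cord where called. Zic4 read 20, 24.8, 16, 20.8 and 18 CPM in hindbrain and 0, 0, 1.15, 4.4 and 3.74 CPM in spinal cord (log2 fold change -3.39 ± 0.48), and Zic2 and Zic1 were lower by -2.74 and -1.65 on the log2 scale, whereas Zic5 was not called (log2 fold change -1.76, adjusted p = 0.0677). Zic4 and Zic1 lie on opposite strands and overlap, and if strand was not used, reads on exons of both were left out of both counts. Irx1 and Irx3, Iroquois factors, were lower by -2.19 and -1.58, and the nuclear receptor Nr2f2 by -1.92. Six3, a forebrain factor, was at least 19-fold lower. Pbx3, a Hox cofactor, at 20.7 ± 1.71 against 45 ± 11 CPM, was the 1 gene of the list higher in spinal cord (log2 fold change 1.12 ± 0.27). En2, Emx2 and Lhx2 were not called. Nr2e1, an orphan nuclear receptor of neural stem cells that is outside this list, read 23.4, 8.74, 22.6, 9.7 and 15.7 CPM in hindbrain and 0 in spinal cord, at least 70.9-fold lower.

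Of 17 tested genes that handle retinoic acid 2 were called (11.8%), both lower in spinal cord. Among genes with at least 5 CPM 5.16% were called higher and 2.81% lower, so the 2 are described as single genes. Cyp26b1 (chromosome 6, 84571414 to 84593908), whose start is shown above, read 383, 626, 563, 559 and 534 CPM in hindbrain and 5.45, 2.95, 33, 1.26 and 3.74 CPM in spinal cord. All hindbrain libraries stood more than 10 times above the highest spinal cord library, replicate 3. The log2 fold change was -5.79 ± 0.56 (edgeR, adjusted p = 5.06e-12). Dhrs3, a reductase that turns retinal back to retinol, read 67.2 ± 14.9 CPM in hindbrain and 14.1 ± 7.63 CPM in spinal cord (SD, n = 5 each), a log2 fold change of -2.25 ± 0.57. The synthesizing Aldh1a enzymes and the Rar and Rxr receptors were not called.

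Some gliogenic transcription factors and Wnt genes were lower in spinal cord. Of 22 gliogenic transcription factors 5 were lower and 0 higher (22.7% called), with a median log2 fold change of -0.82. Hes5, a Notch target that keeps cells in a glial or progenitor state, read 514, 545, 445, 365 and 356 CPM in hindbrain and 8.92, 33.5, 37.8, 31.4 and 23.4 CPM in spinal cord. The regions did not overlap, and the log2 fold change was -4.03 ± 0.44 (adjusted p = 2.81e-10). Sox9, which specifies astrocytes, read 1411 ± 262 CPM against 422 ± 25.5 CPM (log2 fold change -1.74 ± 0.31), and Sox2, Sox21 and Tcf7l2 were lower by -1.16, -1.62 and -1.21. Of 33 Wnt genes tested, 5 were lower and 1 higher (18.2% called). The shares over genes with at least 5 CPM were 5.16% higher and 2.81% lower. Fzd2, a Wnt receptor, read 352, 419, 361, 311 and 381 CPM in hindbrain and 25.3, 42.6, 35.5, 30.1 and 39.8 CPM in spinal cord, a log2 fold change of -3.39 ± 0.43 with no overlap. The secreted Wnt inhibitors Sfrp5 (809 ± 199 against 241 ± 56.8 CPM) and Dkk3 (28.2 ± 7.26 against 10.7 ± 6.86 CPM) were lower too, whereas Frzb, of the same class, was the 1 gene higher in spinal cord, at 5.52, 3.22, 3.33, 1.73 and 1.69 CPM in hindbrain and 38.2, 100.4, 21.5, 29.2 and 29.5 CPM in spinal cord (log2 fold change 3.80 ± 0.79).

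Slc1a3, which encodes GLAST, was itself lower in spinal cord although both groups were sorted as GLAST-. It read 1771, 1219.6, 1407, 1137 and 1331 CPM in hindbrain and 215, 144, 214, 191 and 129.6 CPM in spinal cord, a log2 fold change of -2.94 ± 0.29 (adjusted p = 9.67e-12). GLAST-positive hindbrain astrocytes had a mean of 7168 CPM. Genes known from Bergmann glia, the radial astrocytes of the cerebellar cortex, were lower in 10 of 19 tested cases and higher in 1. Their median log2 fold change was -1.32. The higher gene, Sept4 (log2 fold change 1.10), was not called without spinal cord replicate 3 (0.79, edgeR, adjusted p = 0.0536). Hes5, counted among the lower genes, had a lower mean in GLAST-positive than in GLAST- hindbrain cells, as given below. Gdf10, a TGF-beta family ligand of Bergmann glia, read 107, 63.9, 81.9, 90.7 and 35.4 CPM in hindbrain and 6.94, 0.328, 14, 1.57 and 1.87 CPM in spinal cord (log2 fold change -3.89 ± 0.53), against a mean of 1706 CPM in the GLAST-positive hindbrain cells. The hindbrain samples include the cerebellum, so a share of Bergmann glia in them was not separated from a lower level in spinal cord astrocytes. Ptprz1, a receptor phosphatase of glia, read 1977 ± 180.0 against 722 ± 94.9 CPM, and Vim, an intermediate filament gene of immature and reactive glia, 29.7 ± 11.5 against 5.69 ± 3.05 CPM (log2 fold change -2.35 ± 0.51). The Wnt inhibitor Wif1, also on this list, had no count in spinal cord and was at least 17.3-fold lower. Tnc, a matrix glycoprotein, was lower by -2.53 ± 0.66 on the log2 scale, but without spinal cord replicate 3 its adjusted p was 0.0549.

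**Figure D4:**
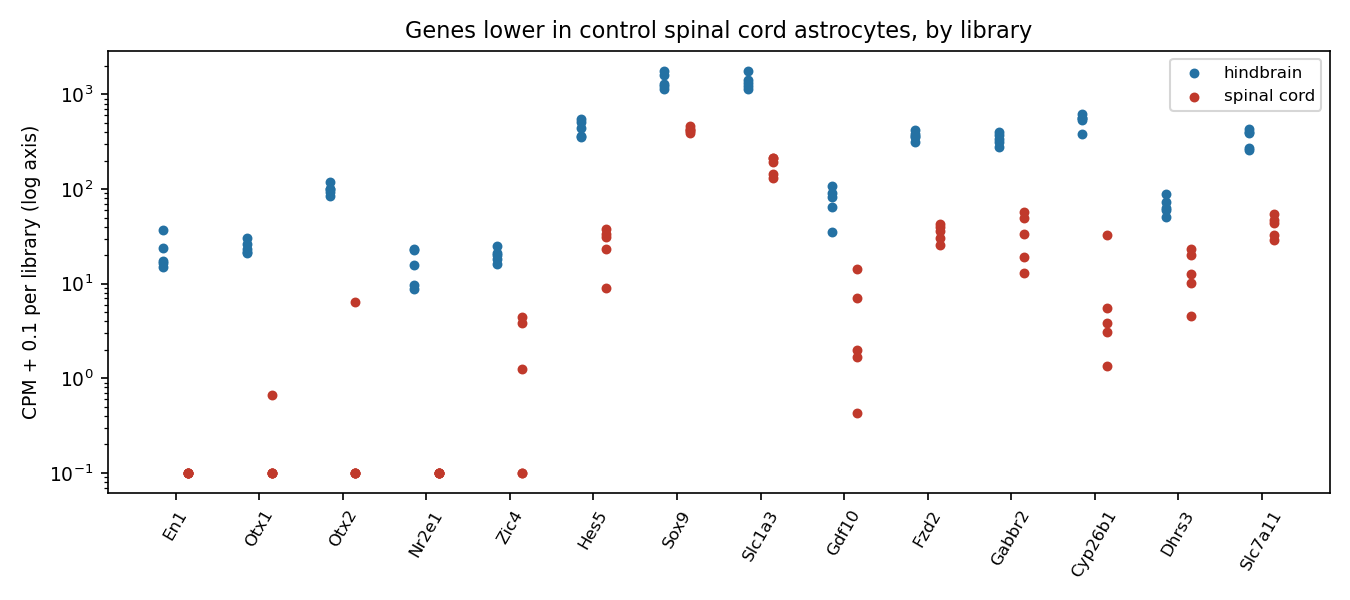
Level per library as CPM + 0.1 on a log axis (vertical) of genes lower in spinal cord (horizontal), with hindbrain and spinal cord libraries as points. En1 and Nr2e1 lie at 0 CPM in all spinal cord libraries, and Cyp26b1, Hes5, Fzd2 and Slc1a3 lie lower in spinal cord without overlap.

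Receptors for transmitters had calls in both directions. Of 47 tested, 8 were lower and 3 higher (23.4% called). Among genes with at least 5 CPM 5.16% were called higher and 2.81% lower. As a list the receptors had no clear direction, with 21 log2 fold changes above 0, 24 below and a median of -0.20. The count of higher genes was 1 or 2 with any single library left out. The count of lower genes was 5 without hindbrain replicate 3 or without spinal cord replicate 2, 3 or 5. Gabbr2, a subunit of the GABA-B receptor, read 339, 375, 316, 276 and 400.2 CPM in hindbrain and 12.9, 57.1, 33.5, 49.9 and 19.2 CPM in spinal cord (log2 fold change -3.29 ± 0.41). Gria1, an AMPA receptor subunit typical of Bergmann glia, read 534 ± 48.4 against 165 ± 61.7 CPM and Gabra4, a GABA-A subunit, 78.4 ± 17.6 against 27.4 ± 8.69 CPM. Ednrb, the endothelin B receptor, and Npr2, a natriuretic peptide receptor, were lower by -1.15 and -1.38. Among 24 transport genes 2 were lower and 1 higher (12.5% called). The count of lower genes was 1 without spinal cord replicate 3, 5 without spinal cord replicate 5 and 6 with a term for the sheet range. Slc6a11, the GABA transporter of astrocytes, was lower (10411 ± 1777 against 3959.8 ± 740.2 CPM, log2 fold change -1.39 ± 0.38), but its adjusted p was 0.0573 without spinal cord replicate 3. Slc12a2, the sodium, potassium and chloride cotransporter, was the 1 transport gene higher in spinal cord, at 124, 59.3, 82.6, 135 and 74.8 CPM in hindbrain and 325, 580.0, 899, 465 and 421 CPM there (log2 fold change 2.50 ± 0.28).

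Stress and redox genes differed in part. Slc7a11, the cystine and glutamate exchanger that supplies glutathione synthesis, read 389, 261, 426, 274 and 405 CPM in hindbrain and 43.6, 28.5, 33, 55 and 46.8 CPM in spinal cord (log2 fold change -3.08 ± 0.46), and Hmox1, haem oxygenase, 71.2 ± 14.8 against 14.2 ± 2.86 CPM (log2 fold change -2.32 ± 0.35). These were the 2 lower genes of 18 metallothionein and antioxidant genes (11.1% called), none of which was called higher. Among genes with at least 5 CPM 5.16% were called higher and 2.81% lower. Among 25 immediate early and heat shock genes Ier5 was lower and 2 were higher, of which Hsp90aa1, a chaperone, read 582 ± 151 CPM in hindbrain and 1597 ± 428 CPM in spinal cord (log2 fold change 1.46 ± 0.21). The other, the transcription factor gene Jun (log2 fold change 1.12 ± 0.26), missed the fold threshold without hindbrain replicate 3 (1.00), spinal cord replicate 2 (0.94) or spinal cord replicate 4 (0.96). No cholesterol synthesis (19 tested), lactate metabolism (15), blood brain barrier (13), A2-specific reactive (11) or mitochondrially encoded (13) gene was called by edgeR in the fit of all 66 libraries. The barrier genes summed to between 3170 and 3508 CPM in spinal cord and between 4836 and 5891 CPM in hindbrain. In the 10 control libraries alone 3 barrier genes were called lower and 1 A2-specific gene higher, with the replicate number as a block also 2 mitochondrially encoded genes lower, and with the sheet range term 1 barrier and 1 lactate gene lower. The lactate gene count was also 1 without hindbrain replicate 1 or without spinal cord replicate 1, 2 or 5.

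Oligodendrocyte genes were higher in spinal cord, with 10 of 10 markers called. Mbp, myelin basic protein, read 540.1, 163, 369, 339.7 and 214 CPM in hindbrain and 1251, 1891, 3763, 1593 and 1599 CPM in spinal cord (log2 fold change 2.63 ± 0.38). The highest hindbrain library for Mbp lay below the lowest spinal cord library by more than 2 times. All 4 precursor markers were higher as well. Pdgfra, the receptor that marks precursors, read 2.12, 5.52, 1.33, 1.73 and 1.12 CPM in hindbrain and 72.9, 72.8, 61.3, 44.3 and 51.9 CPM in spinal cord (log2 fold change 4.63 ± 0.66), and Gpr17, a receptor of committed precursors, 11, 3.68, 5.33, 8.66 and 7.31 CPM and 314, 418, 153, 91.7 and 175 CPM (log2 fold change 4.97 ± 0.68). Sox10, which drives the oligodendrocyte fate, read 25.2 ± 5.55 against 199.9 ± 85.7 CPM. Olig2, found in precursors and in some astrocytes, read 275 ± 25.4 against 695 ± 153 CPM (log2 fold change 1.34 ± 0.34).

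Axon guidance genes were higher in spinal cord in 11 of 47 tested cases and lower in 2 (27.7% called). Their median log2 fold change was 0.44. The shares over genes with at least 5 CPM were 5.16% called higher and 2.81% lower, which also holds for the lists that follow. Sema5a, a semaphorin with repulsive and attractive action on axons, read 2.12, 3.22, 3.33, 6.58 and 1.69 CPM in hindbrain and 105, 116, 59.9, 46.2 and 55.2 CPM in spinal cord (log2 fold change 4.43 ± 0.66, adjusted p = 8.77e-07). Ephb1, Efnb3 and Unc5b, receptors and a ligand of the ephrin and netrin systems, were higher by 2.99, 2.97 and 2.96 on the log2 scale, each with its top level in spinal cord replicate 3, the library with the highest oligodendrocyte marker sum. Nrp2, Robo2 and Sema6a were higher by 2.68, 1.95 and 1.75. Rgma, a repulsive guidance molecule, was lower (1226 ± 196 against 531 ± 54.3 CPM), as was the ephrin ligand gene Efnb2 (9.87 ± 4.21 against 0.909 ± 0.955 CPM). Matrix genes had calls in both directions, with 4 of 44 higher and 5 lower (20.5% called). Tnr and Hapln2, matrix proteins of nodes of Ranvier and perineuronal nets, were higher by 2.71 and 2.79, and Fbln5, an elastic fibre protein, was lower by -2.82. Among synapse-organizing genes 5 of 33 were lower and 2 higher (21.2% called). Lrtm2, a leucine-rich repeat membrane protein, read 405 ± 89.4 against 73.2 ± 44.4 CPM and Ntrk2, the BDNF receptor, 1241 ± 146 against 496 ± 55.3 CPM. Hhip, an inhibitor of Hedgehog ligands, was higher (8.69 ± 3.39 against 53.6 ± 19.7 CPM, log2 fold change 2.63 ± 0.42), Fgfr2 was higher and Fgfr1 lower among the FGF receptors (log2 fold change 1.82 ± 0.35 and -1.19 ± 0.25), and Pdgfa, the ligand of the precursor receptor, was higher (17 ± 4.32 against 62.4 ± 18 CPM).

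The remaining lists held few calls, to be read against 5.16% called higher and 2.81% lower among genes with at least 5 CPM. Of 19 dorsoventral patterning factors 2 were higher, among them Olig2, and 1 was lower, Tfap2b (14.4 ± 12.8 against 0.582 ± 0.876 CPM). Of 27 BMP and TGF-beta genes 3 were lower, among them Gdf10 and the receptor gene Bmpr1a (42.7 ± 6.82 against 13.3 ± 7.32 CPM), and 2 were higher, Bmp4 and Smad7. Neither was called without hindbrain replicate 2 or 3 or without spinal cord replicate 2 or 3, and Bmp4 was called in 2 of 10 fits that left out 1 library. Cadherins and adhesion genes had 2 higher and 2 lower of 30. Nrcam, a neuronal and glial adhesion molecule, was lower at 430.2 ± 55.1 against 201 ± 50.8 CPM, and Itgb4, an integrin subunit, was higher at 11.9 ± 8.52 against 62.9 ± 31.8 CPM. Of the reactive astrocyte lists, 1 of 13 pan-reactive genes (Vim) and 2 of 11 A1-specific genes (Fbln5 and Amigo2) were lower, and none was called higher. Of 5 intermediate filament genes Vim was lower and Synm, synemin, was higher (11.8 ± 8.18 against 59.7 ± 17.8 CPM).

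After the sums were seen, the 10 libraries were also fitted with the log2 of the oligodendrocyte sum as a covariate. The sums of the regions did not overlap, so the fit reaches beyond the range of each region. It cannot separate region from oligodendrocyte content, and its values are given as a description. Called with the covariate were 46 of 17135 genes (0.268%), against 1299 (7.58%) in the same 10 libraries without it. Standard errors were larger, with a median ratio of 2.39 for genes higher and 2.45 for genes lower in spinal cord. The 2 directions differed in what remained of the fold changes. Of the 610 higher genes 429 kept their sign and 196 a log2 fold change above 1, and their median went from 2.26 to 0.45. Of the 369 lower genes 359 kept their sign and 244 stayed below -1, with a median of -1.67 before and -1.54 after. All 17 called Hox genes stayed above 1 and 10 of them were called (Hoxa7 11.51 ± 1.13, adjusted p = 5.65e-07). Of the 13 rostral factors 11 kept a log2 fold change beyond 1 in size and 2, Otx1 and Otx2, were called, whereas the adjusted p of En1 was 0.116. Cyp26b1 (-8.13 ± 1.05), Hes5 (-4.65 ± 0.61), Slc1a3 (-3.44 ± 0.45), Gdf10 (-6.55 ± 1.00), Fzd2 (-3.17 ± 0.48), Gabbr2 (-3.34 ± 0.70) and Slc7a11 (-2.87 ± 0.53) were called lower. Pdgfra (5.50 ± 0.94), Gpr17 (4.62 ± 0.91) and Sema5a (4.55 ± 0.96) were called higher. Of 13 axon guidance genes 9 kept their sign and 4 a size above 1. Slc12a2 fell to 0.33 ± 0.46, Hhip to 0.91 ± 0.82 and Ephb1 to 0.58 ± 0.54, Unc5b was at -0.12 ± 0.49 and Efnb3 at -0.64, none called. Oligodendrocyte markers are part of the covariate, so their own values in that fit carry no information. The precursor markers are not part of the covariate, so the values of Pdgfra, Gpr17 and Sema5a do not account for precursor RNA. The part of oligodendrocyte or precursor RNA in each single gene was not tested.

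**Figure D5:**
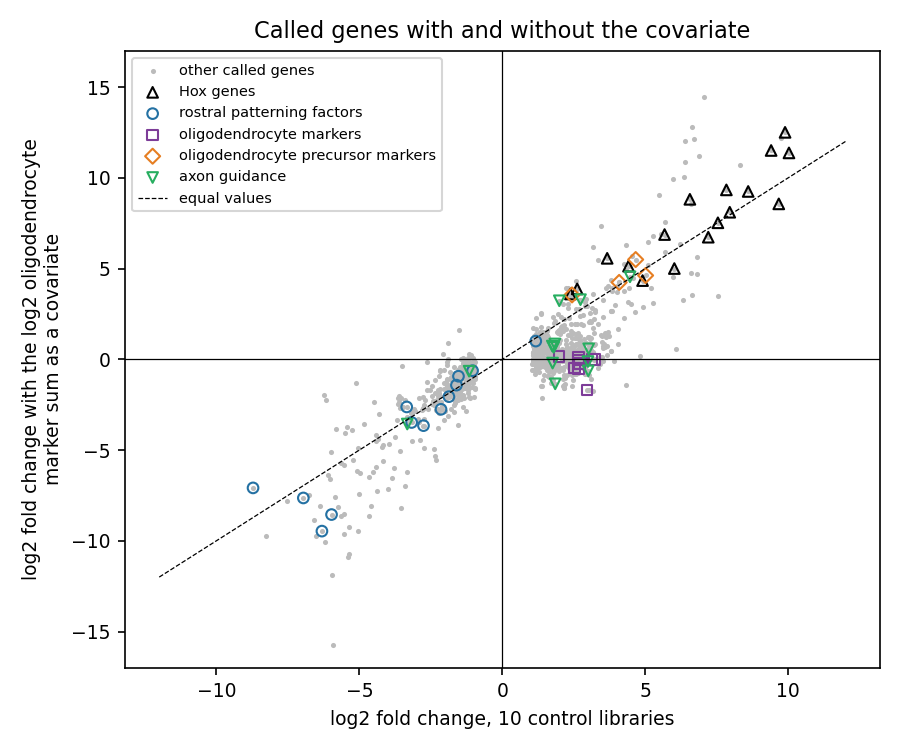
Log2 fold change of the genes called in controls with the oligodendrocyte marker sum as a covariate (vertical axis) against that in the 10 control libraries without it (horizontal axis), 1 point a gene, with gene lists coloured. Hox genes stay near the diagonal, and many higher genes lie near 0 on the vertical axis.

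The sheet number could be set apart from region only with libraries of diseased mice, since it does not overlap in controls. With a term for the high sheet range, 757 genes (3.25%) were called, 382 of the 610 higher and 203 of the 369 lower genes among them. Hoxc8 (7.78 ± 1.15), Hoxa7 (8.79 ± 1.05), En1 (-12 ± 1.63), Cyp26b1 (-6.08 ± 0.70), Hes5 (-4.74 ± 0.64) and Slc1a3 (-3.36 ± 0.38) were called in that fit, and 12 of the 17 Hox genes. Otx1, Otx2, Six3, Nr2e1 and Wif1 could not be tested in it, with standard errors of 41.5 or more or none. Of the 13 rostral factors 7 were called. Among genes described above, calls were lost for, among others, Frzb (log2 fold change 3.25, adjusted p = 0.0648), Olig2 (1.24, 0.121), Slc7a11 (-2.18, 0.0787), Ier5 (-1.58, 0.066), Hoxc10 (6.79, 0.0509), Hoxb4 (2.17, 0.269), Hoxd4 (1.95, 0.107), Zic2 (-4.43, 0.204), Nr2f2 (-2.06, 0.0673), Tfap2b (-2.92, 0.453), Bmp4 (3.13, 0.323), Nrp2 (2.17, 0.371), Robo2 (0.82, 0.842) and Fbln5, whose fold change turned to 2.13 (0.259).

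The same regions were compared in mice with EAE, whose libraries are other groups of the same fit. Controls and stages shared its estimate of the spread, so calls at the stages are not independent of the control calls. At clinical score 1 (5 spinal cord and 6 hindbrain libraries) 2954 genes (12.7%) were called, at score 4 (6 and 6) 4831 (20.7%) and at the chronic stage (6 and 6) 5407 (23.2%). Of the 610 genes higher in control spinal cord, 503 (82.5%), 520 (85.2%) and 537 (88%) were called higher at these stages, and of the 369 lower genes 285 (77.2%), 290 (78.6%) and 286 (77.5%) were called lower. Only some spinal cord libraries lay in the sheet range of hindbrain, 5 of 6 at score 4 and 2 of 6 at the chronic stage. With these alone, score 4 had 4484 genes called (19.2%), 512 and 284 of the control genes among them. The chronic stage had 3337 (14.3%), with 482 and 250, and rests on those 2 spinal cord libraries. For 1 spinal cord library at score 1 the title and the region field disagree. Without it 2785 genes were called, 481 and 280 of the control genes among them. Its Hox sum of 584 CPM lay within the 308 to 676 CPM of the spinal cord libraries and above the 28.4 to 103 CPM of hindbrain at that stage.

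Hox and rostral genes stayed apart at every stage. The Hox sum was 191 to 398 CPM in spinal cord against 27.7 to 73.2 CPM in hindbrain at score 4, and 334 to 745 against 62 to 92.9 CPM at the chronic stage. Of the 17 control Hox genes 15, 13 and 14 were called higher at score 1, score 4 and the chronic stage, and of the 13 rostral factors 12 were called in the control direction at each. Cyp26b1 differed by -4.82, -4.46 and -3.88 and Hes5 by -6.35, -6.64 and -5.51 on the log2 scale. The makeup of the libraries differed more in EAE. The astrocyte marker sum in spinal cord was 20152 to 75451 CPM at score 1, 8154 to 15959 at score 4 and 8561 to 13172 at the chronic stage, while in hindbrain it lay between 82176 and 114386 over all 3. The oligodendrocyte marker sum in spinal cord was 26912 to 62071 CPM at score 1, 30361 to 77684 at score 4 and 25393 to 41609 at the chronic stage, against 4211 to 12328, 2483 to 11383 and 2423 to 4995 CPM in hindbrain. The part of these shifts in the counts of genes called at those stages was not tested.

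GLAST-positive hindbrain astrocytes of control mice served as a further comparison that shares the spinal cord libraries. Against them 3224 genes (13.8%) were called in spinal cord. Otx2 and En1 had lower means in these cells (7.08 and 9.47 CPM) than in GLAST- hindbrain cells (99.4 and 21.9 CPM), as had Hes5 (47.2 against 445 CPM) and Cyp26b1 (26.7 against 533 CPM). Zic4 (143 against 19.9 CPM) and Vim (461 against 29.7 CPM) had higher ones.

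A second strain, FVB/N, held 3 libraries each of GLAST- spinal cord and hindbrain astrocytes. By their labels 1051 of 14957 genes (7.03%) were called, with Hoxc8 at -10.2 on the log2 scale, so that the libraries labelled spinal cord lacked this spinal cord gene. Of the genes higher in C57BL/6J spinal cord 583 were tested, 14 were called in the same and 168 in the opposite direction. Under the group names that a supplement of the study gives the same libraries, Hoxc8 was at 8.26, 204 genes (1.36%) were called, and 49 and 50 of the higher and lower genes were called in the same direction, with 4 and 0 opposite. Under these names Cyp26b1 was lower by -5.26, Otx2 by -5.41, Gdf10 by -3.00 and Slc1a3 by -1.33, and Hes5, at -0.36, was not called. Which naming holds was not settled here.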

How the data were processed

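Cells were sorted from control mice, and RNA with an integrity number above 5 was used for 3′ libraries. The authors aligned reads to GRCm38 with HISAT 0.1.5, counted them per gene with HTSeq 0.6.1p1, and deposited whole-number counts without normalization. All 66 libraries of the EAE experiment entered 1 fit in 12 groups with edgeR 4.0.16 in R 4.3.3 (quasi-likelihood, TMM, a minimum total of 10 counts per gene, two-sided, Benjamini-Hochberg), and the group difference of control spinal cord minus control hindbrain was tested. Lists and figures used Python 3.11.15 and pandas 2.3.3. Groups came from titles. Gene models were those of GENCODE vM21. The members and gene lists were chosen with earlier results of these data known.

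Genes were named by a rule. It took Hoxc8, the 12 largest differences in each direction among calls that reached 5 CPM without overlapping libraries, up to 4 called genes with the lowest p in each direction of each list, and the 2 most abundant genes of each marker list. Other members named in the text were chosen after their values were seen. Where a group held no count, the fold was taken against 3 counts over the group, and where it held 1 to 3 counts an exact 95% interval of the ratio is given.

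Libraries of the regions with the same replicate number did not deviate together (r from -0.0558 to 0.0636 over 5 pairs), and no pairing was used. The bracketed part of each title also starts with a number. It was shared by 2 pairs, hindbrain replicate 5 with spinal cord replicate 1 (r 0.0727) and hindbrain replicate 2 with spinal cord replicate 4 (r 0.0080). The meaning of this number is not given, so whether these pairs came from the same mice was not settled. Alternatives were other normalizations and filters, DESeq2 1.42.0, limma 3.58.1, fewer libraries, a replicate block, a sheet range term and each library left out. The covariate fit and the fit without 1 library at score 1 were added after seeing the data. Some genes are not reported here. Calling was tested on simulated data. Promoter windows came from RefSeq, where 9 of the 17 called Hox genes matched.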

Additional observations from a re-analysis of the deposited data

Results flagged for a closer look

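Libraries that stood apart from the other 4 of their group by Dixon's test are given here for 235 groups of 5 values examined, of which 30 were marked. For normally distributed values chance marks about 1 in 20 groups. CPM values are skewed and hold zeros, so chance can mark more here. A gene with counts in 1 of the 5 libraries only is always marked.

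Spinal cord replicate 3 was highest for the oligodendrocyte genes Mbp (3763 CPM) and Sept4 (923 CPM), for the oligodendrocyte marker sum (41870.0 CPM), for Efnb3 (1134 CPM) and for Spock1 (235 CPM). It was also highest for the ependymal marker sum (69.1 CPM) and for 4 genes otherwise near 0 in spinal cord, Cyp26b1 (33.0 CPM), Otx2 (6.31 CPM), Clic6 (1.15 CPM) and the globin Hbb-bt (4.01 CPM). It was lowest for Hoxa9 (21.5 CPM) and for the GABA transporter Slc6a11 (2682 CPM). Spinal cord replicate 2 was highest for Frzb (100.4 CPM), Hoxa10 (35.8 CPM), Lrtm2 (151 CPM) and Fbln5 (9.84 CPM). Spinal cord replicate 5 was highest for Hoxc6 (148 CPM), Sfrp5 (338 CPM) and St6galnac5 (3.28 CPM), and replicate 1 for Cbln3 (7.44 CPM) and Cd4 (4.46 CPM).

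Among hindbrain libraries replicate 1 was highest for Cdh1 (15.7 CPM), Snap25 (78.2 CPM) and the neuronal marker sum (167 CPM), replicate 2 for Pdgfra (5.52 CPM), replicate 4 for Amigo2 (42.6 CPM) and Hsp90aa1 (840 CPM), and replicate 5 for Glra1 (2.81 CPM). Replicate 5 was lowest for Pdgfa (9.55 CPM) and for the Schwann cell marker sum (107 CPM).

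The region difference of Tnc, a matrix glycoprotein of reactive glia, had opposite signs in controls and at score 4. In controls it was lower in every spinal cord library, with a log2 fold change of -2.53, and at score 4 it was higher in every spinal cord library, with 2.22. It was 1.52 at score 1 (edgeR, adjusted p = 0.061) and 1.45 at the chronic stage (0.0328). The difference between these effects was not tested.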

How the results depend on the processing

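Between 752 and 997 genes were called when 1 library was left out (466 to 624 higher, 286 to 373 lower), lowest without spinal cord replicate 3, against 979 (610 and 369) with all. With the oligodendrocyte sum as a covariate, 46 genes were called, 23 higher and 23 lower. A test against a log2 fold change of 1 (glmTreat) left 282 genes, 207 higher and 75 lower. limma voom on the 10 libraries called 1451, of which 669 lower, and with the leading number of the bracketed name as a random block 1508, of which 698 lower. DESeq2 called 1244. Higher genes made up 62.3% of calls, and 53.9% with the sheet range term, 53.9% with limma voom and 53.7% with voom and the random block. At the chronic stage 3337 genes were called within the sheet range of hindbrain, which held 2 of the 6 spinal cord libraries. In FVB/N 204 were called under the group names of the supplement. Other normalizations, filters and sample choices gave between 969 and 1299 calls.

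A fit of the 10 libraries with the replicate number as a block called 1373 genes, 824 higher and 549 lower, although libraries with the same replicate number did not deviate together. Of 99 named called genes, 16 were called in every setting. Fold changes turned sign with the covariate for Efnb3 (-0.64), Itgb4 (-0.12), Lpar1 (-0.47), Mbp (-0.0337), Sept4 (-0.62), Smad7 (-0.41), Spock1 (-0.0714), Synm (-0.37) and Unc5b (-0.12), and with the sheet range term for Fbln5 (2.13). The cause was not tested, and Mbp is in the covariate. Depth limits genes below 2.00 CPM in a library, and 5 against 5 libraries limit the rest.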

Other observations

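Sst, Penk and Tac1, neuropeptide genes chosen after their values were seen, were higher in the sorted spinal cord libraries. Sst, somatostatin, read 4.67, 1.84, 0, 3.12 and 1.69 CPM in hindbrain and 119, 300.5, 41.3, 65.3 and 104 CPM in spinal cord (log2 fold change 5.68 ± 0.94). Penk, proenkephalin, read 4.67, 3.22, 2.00, 0 and 0.562 and 116, 229.9, 21.8, 66.3 and 90.3 CPM (5.62 ± 0.86), and Tac1, the substance P precursor, 0, 3.68, 0, 0 and 0 and 106, 148, 14.6, 59.3 and 56.6 CPM (6.60 ± 1.27). Spinal cord replicate 2 was the highest and replicate 3 the lowest library for all 3 genes. Npy, another neuropeptide, and the GABA synthesis and vesicle genes Gad1, Gad2 and Slc32a1 were not called by edgeR. Neuronal markers summed to between 160 and 291 CPM in spinal cord and between 67.4 and 167 CPM in hindbrain, with Syt1 (33.6, 17, 9.99, 13.9 and 8.43 against 73.9, 131, 28.7, 70.7 and 53.3 CPM) as the 1 of 5 called. The part of neuronal RNA in the peptide genes was not tested.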
